A study of Mus musculus with 12 samples.

Results

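Hnrnpd, Wdr77 and Mcts1 are 3 genes whose products act on RNA or on its translation, and they were taken by name from the 99 genes of the deposited expression table. All 3 were among the 70 genes that passed the filter on low values. Hnrnpd and Wdr77 were highest in the iPSCs and lowest in the skin fibroblasts (Fibs), with 5.64-fold and 3.30-fold higher levels in iPSCs than in Fibs. Mcts1 followed another order. It was lowest in the iMSCs, at 0.457 times the BMSC level, 0.371 times the Fib level and 0.426 times the iPSC level.

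An mRNA is made, spliced, kept or degraded, and then read by ribosomes, and these proteins work at different points on that path. Hnrnpd (heterogeneous nuclear ribonucleoprotein D, also called AUF1) binds AU-rich elements in mRNAs, most often speeding the decay of messages such as those of cytokines and cell cycle regulators. Wdr77 (WD repeat domain 77, also called MEP50) is the partner of the arginine methyltransferase PRMT5 in the methylosome, which methylates Sm proteins for the assembly of spliceosomal particles and also methylates histones. Mcts1 (malignant T cell amplified sequence 1) pairs with DENR, and the pair helps to clear the small ribosomal subunit after termination so that it can be reused or can start again at a further reading frame.

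The study compared cells along a route from skin to induced mesenchymal stem cells, with bone marrow mesenchymal stem cells as the reference. The Fibs were wild-type (WT) primary cultures from the ear skin of female C57BL/6 mice. The iPSCs carry the genotype label Reprogramming and came from such Fibs by Sendai virus with human Oct4, Sox2, Klf4 and c-Myc, and they were kept on a feeder layer of growth-arrested cells with LIF. The iMSCs, also labelled Reprogramming, were derived from iPSCs through embryoid bodies with TGF-beta1 at 10 ng/ml and bFGF at 5 ng/ml, and the BMSCs were WT cultures from femoral marrow. Each of the 4 cell types gave 3 libraries from independent cultures. How many mice or iPSC clones stand behind the cultures is not stated, so the p-values measure the spread between these cultures.

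The library totals implied by the table were 66116449 to 77355177 counts, and the 99 genes held 0.365 to 0.485% of them. In 1 library, iMSC replicate 2, the distance from the other iMSC libraries was 5.67 to 5.95 log2 units, taken over the 70 genes together. All other replicate pairs were at most 2.45 apart. This is 1 value per pair of libraries and not a difference per gene. Hnrnpd, for example, had an FPKM of 18.4 in that library and 12.5 and 12.99 in the other iMSC libraries. The tests of the 3 genes in iMSCs are therefore given with and without iMSC replicate 2. Few of the listed markers of cell identity were in the table. Cdh1, the 1 of 17 pluripotent cell markers present and also an epithelial gene, was at an FPKM of 131.5 to 142.9 in the iPSCs and at most 0.672 elsewhere. Cav2 and Itga5, 2 of 22 mesenchymal and fibroblast markers, summed to 49.9 to 52.2 in the Fibs, 57.8 to 62.2 in the iPSCs, 86.0 to 181.6 in the iMSCs and 68.6 to 71.0 in the BMSCs, with 181.6 in iMSC replicate 2. The sum was mostly Itga5, and the 2 genes had different orders. The mean FPKM of Cav2 was 13.8 in the Fibs, 1.72 in the iPSCs, 5.59 in the iMSCs and 7.57 in the BMSCs. That of Itga5 was 37.6, 57.5, 113.4 and 62.0 in the same order. Itgb2 and Clec10a, 2 of 13 macrophage and leukocyte markers, summed to 0.363 to 1.19 over all libraries. The part of other cells in the results was not tested.

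The table gives GRCm38 coordinates. Hnrnpd (ENSMUSG00000000568) lies on the minus strand at chr5:99955935-99978938 with 9 transcripts listed, Wdr77 (ENSMUSG00000000561) on the plus strand at chr3:105959369-105969760 with 5, and Mcts1 (ENSMUSG00000000355) on the plus strand at chrX:38600578-38613426 with 5. FPKM, a count scaled by gene length and library total, was here the count divided by 1 fixed length per gene, so it does not tell which of the transcripts was made. Mcts1 shared 0 of its 1568 runs of 100 exon bases with another gene. Hnrnpd shared 3.65% of its runs, all with the antisense gene Gm17092. Wdr77 shared 27.5%, most of them with Gm42890, a non-coding transcript on the same strand, and some with Atp5pb on the opposite strand, whose first 731 bases overlap those of Wdr77. Gm42890 accounts for 1289 of the shared Wdr77 runs, and the use of strand in counting could not separate these. The runs shared with Atp5pb, 142 in number, and those of Hnrnpd with Gm17092 could be separated by strand. Whether strand was used is not stated. The Wdr77 values are thus uncertain in either case, and those of Hnrnpd to a smaller extent.

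The sequences around the RefSeq transcription starts are shown because Hnrnpd and Wdr77 shared their highest and lowest cell type and Mcts1 did not. Each is a RefSeq window on GRCm38.p6, from 250 bases before to 50 bases after the start, written 5′ to 3′ on the gene's strand. They are chr5:99978889-99979188 (minus strand) for Hnrnpd, chr3:105959248-105959547 (plus strand) for Wdr77 and chrX:38600221-38600520 (plus strand) for Mcts1. Capitals mark every CACGTG, the E-box read by many helix-loop-helix factors, and every TCTCGCGAGA, the 10-base palindrome that occurs more than once in the Wdr77 window, and both motifs were picked after the sequences had been seen.
Hnrnpd: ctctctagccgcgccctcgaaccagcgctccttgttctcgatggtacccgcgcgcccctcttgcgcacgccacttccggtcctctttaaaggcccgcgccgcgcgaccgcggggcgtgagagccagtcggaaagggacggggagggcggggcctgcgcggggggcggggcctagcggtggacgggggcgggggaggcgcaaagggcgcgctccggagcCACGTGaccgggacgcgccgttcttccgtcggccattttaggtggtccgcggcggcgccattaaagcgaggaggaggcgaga
Wdr77: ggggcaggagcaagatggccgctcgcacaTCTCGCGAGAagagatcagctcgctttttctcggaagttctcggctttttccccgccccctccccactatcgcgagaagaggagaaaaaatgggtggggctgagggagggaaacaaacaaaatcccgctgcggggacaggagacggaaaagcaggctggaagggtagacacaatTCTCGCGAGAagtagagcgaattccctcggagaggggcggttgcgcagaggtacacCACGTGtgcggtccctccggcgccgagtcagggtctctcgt
Mcts1: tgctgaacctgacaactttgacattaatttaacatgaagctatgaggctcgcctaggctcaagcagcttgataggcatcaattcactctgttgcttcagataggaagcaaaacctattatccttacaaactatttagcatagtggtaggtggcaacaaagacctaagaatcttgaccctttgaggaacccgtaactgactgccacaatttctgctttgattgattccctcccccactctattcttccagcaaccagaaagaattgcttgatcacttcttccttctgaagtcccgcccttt

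The Hnrnpd window holds 1 CACGTG whose first base is at position -32 from the start, and the Wdr77 window holds 1 at position 10. The Wdr77 window also holds TCTCGCGAGA at positions -221 and -47. The Mcts1 window has neither motif. Among all 32851 RefSeq promoter windows of the same length, 7.15% hold CACGTG and 0.466% hold TCTCGCGAGA, both being palindromes that read alike on either strand and that do not overlap each other. The windows also differ in base composition. Hnrnpd has 72.3% G and C with 45 CpG pairs, Wdr77 59.7% with 25, and Mcts1 43% with 3, beside medians of 52.7% and 7 over all windows. RefSeq lists a second Mcts1 window, at chrX:38601009-38601308, with 48% G and C and 2 CpG pairs, and it has neither motif either. Other motifs, searched on either strand, did not divide the genes in this way. GGGCGG occurs 3 times in the Hnrnpd window, 2 times in that of Wdr77 and 1 time in the first of Mcts1. CCAAT occurs in the second Mcts1 window alone, and TATAAA in none. Of all windows, 35.7% hold GGGCGG and 37.4% hold CCAAT. The windows of Hnrnpd and Wdr77 contain the gene start given in the table, but the first Mcts1 window ends before that start and the second begins after it, so the comparison with Mcts1 is not like for like. A match of letters is a description of the window, and binding was not measured.

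Hnrnpd was the most abundant of the 3 genes in the iPSCs, and its libraries differed little within the Fibs, iPSCs and BMSCs. In the Fibs its FPKM was 8.81, 9.16 and 9.77 in replicates 1 to 3 (9.24 ± 0.485, SD, n = 3). In the iPSCs it was 51.9, 52.5 and 52.2 (52.2 ± 0.278, SD, n = 3). Every iPSC library was above the other 9 libraries and every Fib library was below them. The iMSC values were 12.5, 18.4 and 12.99 (14.6 ± 3.25, SD, n = 3). The BMSC values were 18.8, 17.8 and 17.6 (18.1 ± 0.611, SD, n = 3). Both mesenchymal types thus lay between the Fibs and the iPSCs, and they overlapped through iMSC replicate 2 alone.

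By edgeR's quasi-likelihood test with Benjamini-Hochberg adjustment over the 70 genes, Hnrnpd was higher in iPSCs than in Fibs by 2.50 on the log2 scale (SE 0.05, adjusted p = 3.38e-08). It was higher in BMSCs than in Fibs by 0.97 (SE 0.05, adjusted p = 9.96e-07). In iMSCs it was higher than in Fibs by 0.66 (SE 0.17, adjusted p = 0.0183). Against the iPSCs, its log2 fold change was -1.83 in iMSCs (SE 0.19, adjusted p = 0.000267) and -1.53 in BMSCs (SE 0.04, adjusted p = 2.6e-08), both lower. Between iMSCs and BMSCs the log2 fold change was -0.30 (SE 0.17, adjusted p = 0.275), with a 95% interval from -0.72 to 0.11, so no difference was detected with all libraries. Without iMSC replicate 2 it was -0.50 (adjusted p = 0.000119), a lower level in iMSCs. In that setting 41 of the 70 genes passed, beside 12 with all libraries, so such a call was common there. Also without that library, the Hnrnpd values against Fibs and iPSCs were 0.46 (adjusted p = 0.00063) and -2.03 (adjusted p = 5.41e-08). In the comparison with Fibs, leaving out Fib replicate 1, 2 or 3 ended the call, with adjusted p = 0.0661, 0.065 and 0.0531 by the same edgeR test and log2 fold changes of 0.63, 0.66 and 0.70.

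**Figure D1:**
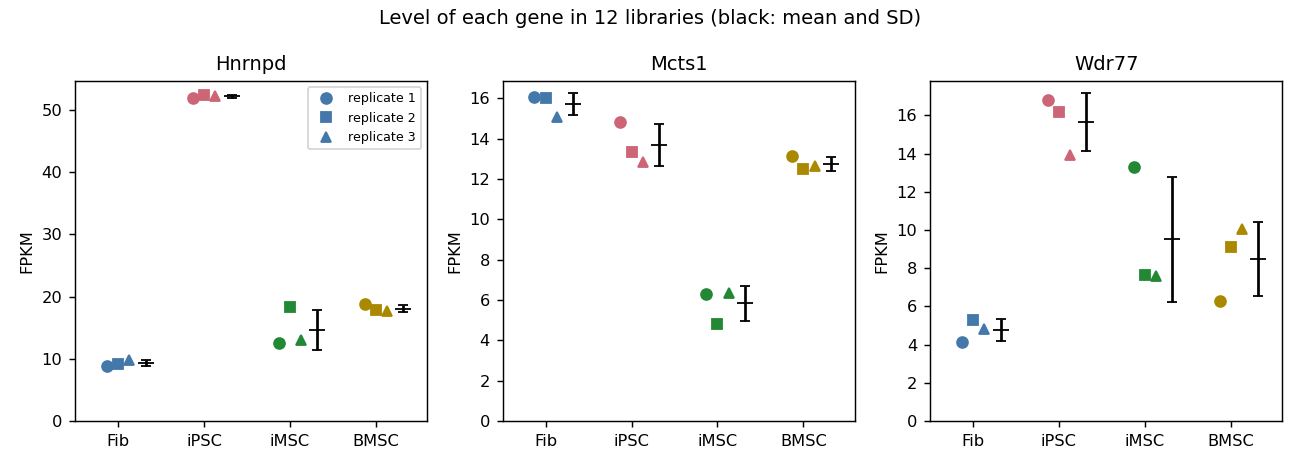
Level of Hnrnpd, Mcts1 and Wdr77 (FPKM, linear axes from 0) in the 12 libraries, by cell type, with circles, squares and triangles for replicates 1, 2 and 3 and black bars for the mean and SD of 3 libraries. Hnrnpd stands at 51.9 to 52.5 in the iPSCs, Mcts1 is at 4.81 to 6.35 in the iMSCs with every other library at 12.5 or more, and Wdr77 has 1 iMSC library at 13.3 beside 2 near 7.6.

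Wdr77 had the same highest and lowest cell type as Hnrnpd, at lower levels and with more spread between replicates. Its FPKM in the Fibs was 4.14, 5.29 and 4.79 (4.74 ± 0.578, SD, n = 3). In the iPSCs it was 16.8, 16.2 and 13.9 (15.6 ± 1.51, SD, n = 3). Again every iPSC library was above the other 9 and every Fib library below them. In the iMSCs it was 13.3, 7.65 and 7.58 (9.51 ± 3.27, SD, n = 3), and in the BMSCs 6.30, 9.10 and 10.0 (8.48 ± 1.94, SD, n = 3). The library that stood out for Wdr77 was iMSC replicate 1, not the replicate 2 that stood apart over all genes. Atp5pb, the gene that overlaps the start of Wdr77, did not stand out in that library. Its FPKM was 28.2 in iMSC replicate 1 and 20.5 and 30.0 in replicates 2 and 3. Gm42890, which shares 1289 runs with Wdr77 beside the 142 of Atp5pb, had no expression values. Whether reads of Gm42890 or of Atp5pb added to the Wdr77 value in iMSC replicate 1 was not tested.

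By the same edgeR test, Wdr77 was higher in iPSCs than in Fibs by 1.72 on the log2 scale (SE 0.12, adjusted p = 6.44e-06). It was higher than in Fibs by 0.84 in BMSCs (SE 0.17, adjusted p = 0.00206) and by 1.004 in iMSCs (SE 0.26, adjusted p = 0.0183). For BMSCs against iPSCs the log2 fold change was -0.88, again lower (SE 0.17, adjusted p = 0.00156). In iMSCs against iPSCs it was -0.72 (SE 0.25, adjusted p = 0.0344), lower as well. That last call did not hold when the libraries were scaled by the 70 genes (-0.39 by median ratio, adjusted p = 0.168, and -0.31 by TMM, adjusted p = 0.222), nor without iMSC replicate 2 or 3 or any 1 of the iPSC libraries (adjusted p = 0.0506 to 0.103). The call against Fibs was lost without Fib replicate 1, 2 or 3 (adjusted p = 0.0634, 0.0501 and 0.0586), at log2 fold changes of 0.91, 1.09 and 1.01. Without iMSC replicate 2 the Wdr77 value was 1.14 against Fibs (adjusted p = 0.00385) and -0.58 against iPSCs (adjusted p = 0.0506). Without iMSC replicate 1, the library that stood out for this gene, it was 0.68 against Fibs and -1.04 against iPSCs.

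Between iMSCs and BMSCs the Wdr77 libraries overlapped. The log2 fold change was 0.17 (SE 0.28, edgeR adjusted p = 0.749), with a 95% interval from -0.51 to 0.85 that leaves room for a change in either direction. Its sign turned without iMSC replicate 1, to -0.15, and without BMSC replicate 1, to -0.0083. It was 0.30 without iMSC replicate 2 (adjusted p = 0.309).

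Mcts1 lay at an FPKM of 12.5 to 16.1 in the Fibs, iPSCs and BMSCs and was lower in the iMSCs. Its FPKM was 16.1, 16.0 and 15.1 in the Fibs (15.7 ± 0.568, SD, n = 3) and 14.8, 13.4 and 12.9 in the iPSCs (13.7 ± 1.04, SD, n = 3). In the BMSCs it was 13.1, 12.5 and 12.7 (12.8 ± 0.344, SD, n = 3), and in the iMSCs 6.31, 4.81 and 6.35 (5.82 ± 0.875, SD, n = 3). The 3 iMSC libraries were below all 9 others, and the Fib libraries were above all 9 others. The lowest value belonged to iMSC replicate 2. In these bulk cultures, fewer cells with the transcript and less of it per cell cannot be told apart, which holds for all 3 genes.

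By the same edgeR test, the Mcts1 log2 fold change in iMSCs was -1.13 against BMSCs (SE 0.16, adjusted p = 0.00718), -1.43 against Fibs (SE 0.16, adjusted p = 0.00192) and -1.23 against iPSCs (SE 0.18, adjusted p = 0.00106), lower in each. These comparisons share the iMSC libraries and so are not independent. Without iMSC replicate 2 the values were -1.01, -1.31 and -1.11, with adjusted p = 0.000119, 5.58e-05 and 0.000128. The call against BMSCs was lost without BMSC replicate 1 (-1.11, adjusted p = 0.0569) or BMSC replicate 3 (-1.13, adjusted p = 0.0575), over a range of 9.09e-11 to 0.0703 in all alternatives.

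Among the other cell types the Mcts1 log2 differences were between -0.30 and -0.10. The log2 fold change for BMSCs against Fibs was -0.30, a lower level (SE 0.08, adjusted p = 0.0111), a call that all 12 libraries in 1 edgeR fit did not give (adjusted p = 0.0645). For iPSCs against Fibs it was -0.20 (SE 0.11, adjusted p = 0.12) although the libraries did not overlap, with a 95% interval from -0.46 to 0.06. This value depended on the scaling, since it was -0.63 by median ratio (adjusted p = 0.00202) and -0.66 by TMM (adjusted p = 0.000973). For BMSCs against iPSCs it was -0.10 (SE 0.09, adjusted p = 0.331), with overlapping libraries and an interval from -0.31 to 0.11, and it turned to 0.09 and 0.20 under those scalings.

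**Figure D2:**
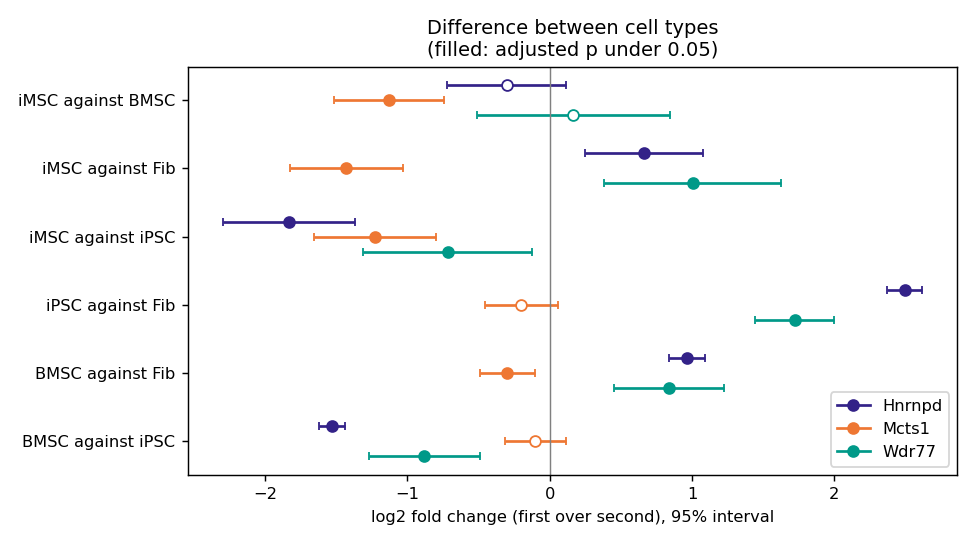
Log2 fold change of each gene in the 6 comparisons, the first cell type over the second, with the 95% interval of the edgeR fit on 3 against 3 libraries, filled where the adjusted p was under 0.05. Mcts1 is to the left of 0 in all 3 comparisons with iMSCs, from -1.43 to -1.13, while Hnrnpd and Wdr77 lie to the right of 0 in every comparison with Fibs, from 0.66 to 2.50.

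Set against all tested genes, these calls were common ones in most comparisons. At an adjusted p under 0.05, 10% of the 70 genes were called higher and 7.14% lower for iMSCs against BMSCs. Of the 3 genes 1 passed, Mcts1, among the lower ones. Without iMSC replicate 2, 41 of the 70 genes passed in that comparison, Hnrnpd and Mcts1 with them, both lower. For iMSCs against Fibs the shares were 27.1% higher and 28.6% lower, and all 3 genes passed, Hnrnpd and Wdr77 higher and Mcts1 lower. For iMSCs against iPSCs they were 27.1% and 48.6%, and all 3 genes were lower. For iPSCs against Fibs they were 54.3% and 32.9%, and Hnrnpd and Wdr77 were higher. For BMSCs against Fibs they were 38.6% and 37.1%, with Hnrnpd and Wdr77 higher and Mcts1 lower. For BMSCs against iPSCs they were 27.1% and 51.4%, with Hnrnpd and Wdr77 lower. With an absolute log2 fold change over 1 asked for as well, 4, 27, 38, 38, 18 and 34 genes passed in the same order, and of the 3 genes 1, 2, 2, 2, 0 and 1.

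The comparisons with iPSCs carry a shift common to many genes. The median log2 fold change of the 70 genes was 0.57 for iPSCs against Fibs, -0.29 for iMSCs against iPSCs and -0.26 for BMSCs against iPSCs, and within 0.09 of 0 in the comparisons without iPSCs. Median-ratio and TMM scaling moved these medians by -0.43 and -0.46, 0.33 and 0.42, and 0.19 and 0.31. The splits of higher and lower calls became 32 and 28 or 32 and 30 in place of 38 and 23 for iPSCs against Fibs. They became 28 and 29 or 29 and 26 in place of 19 and 34 for iMSCs against iPSCs, and 27 and 30 or 30 and 29 in place of 19 and 36 for BMSCs against iPSCs. Hnrnpd stayed higher in iPSCs than in each other type under both scalings. Wdr77 did so against Fibs and BMSCs. The size of the differences moved as well. Over all alternatives, the log2 fold change for iPSCs against Fibs was 2.04 to 2.54 for Hnrnpd and 1.26 to 1.81 for Wdr77. That of Mcts1 for iMSCs against iPSCs was -1.30 to -0.82.

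Libraries of 1 cell type that all lie beyond the other 9 were not rare either. The Fibs were below all others for 16 of the 70 genes (22.9%, Hnrnpd and Wdr77 included) and above for 14 (20%, Mcts1 included). The iPSCs were above all others for 29 genes (41.4%), among them Hnrnpd and Wdr77. The iMSCs were below all others for 8 genes (11.4%), one of them Mcts1. The highest mean was 5.65 times the lowest for Hnrnpd, 3.30 times for Wdr77 and 2.70 times for Mcts1, with a median of 3.27 over the 70 genes.

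The 3 genes also differed in how closely replicates matched. The coefficient of variation of Hnrnpd in the iPSCs was 0.533%, and 0 of the 70 genes had a smaller one there, while it was 5.25% in the Fibs, 3.38% in the BMSCs and 22.2% in the iMSCs. For Mcts1 it was 3.61%, 7.58%, 15.0% and 2.69% in Fibs, iPSCs, iMSCs and BMSCs. For Wdr77 it was 12.2%, 9.69%, 34.4% and 22.9% in the same order. The medians of all tested genes were 7.73%, 5.82%, 22.4% and 6.39%, so Wdr77 was above the median in every cell type and Hnrnpd below it in each.

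A ratio of 2 genes within a library does not depend on the library's total. The ratio of Hnrnpd to Mcts1 was 0.548, 0.571 and 0.648 in the Fibs and 3.50, 3.93 and 4.06 in the iPSCs. It was 1.99, 3.82 and 2.05 in the iMSCs and 1.43, 1.42 and 1.39 in the BMSCs. By FPKM, Hnrnpd was thus below Mcts1 in every Fib library and above it in all others. Where a ratio crosses 1 depends on the fixed length used for each gene. Before division by length, the Fib counts of Hnrnpd were 4426, 4786 and 5041, above the 1725, 1790 and 1663 of Mcts1. In the iMSCs, replicate 2 reached the range of the iPSCs.

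The ratio of Wdr77 to Mcts1 crossed 1 along another line. It was 0.258, 0.330 and 0.318 in the Fibs and 0.480, 0.729 and 0.792 in the BMSCs. It was 1.13, 1.21 and 1.08 in the iPSCs and 2.10, 1.59 and 1.19 in the iMSCs. By FPKM, Wdr77 thus exceeded Mcts1 in all libraries of the reprogrammed types and in none of the WT types. This split at 1 rests on the fixed lengths, which are near the 4841 and 1571 bases of all exons of Wdr77 and Mcts1. In the BMSCs the counts of Wdr77 were 2180, 3087 and 3546, above the 1475, 1376 and 1455 of Mcts1. In the Fibs they were 1369, 1820 and 1628 beside 1725, 1790 and 1663. The mean log2 ratio of iMSCs exceeded that of BMSCs by 1.28, or 2.43-fold, and that of Hnrnpd to Mcts1 did so by 0.82, or 1.76-fold, with no overlap in either. These differences were 1.28 and 0.51 without iMSC replicate 2.

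The ratio of Hnrnpd to Wdr77 varied less. It was 2.13, 1.73 and 2.04 in the Fibs, 3.09, 3.25 and 3.75 in the iPSCs, 0.944, 2.40 and 1.71 in the iMSCs and 2.98, 1.95 and 1.76 in the BMSCs. The iPSCs were above all other libraries, and the other types overlapped. Without iMSC replicate 2 the log2 difference of iMSCs from BMSCs was -0.77 in place of -0.47. Of the 18 comparisons over the 3 ratios, 13 did not overlap, and each of those gave p = 0.1 in an exact two-sided permutation test of the log2 ratios, the smallest that 3 against 3 libraries allow (0.138 after Benjamini-Hochberg adjustment over the 18), so none could reach 0.05. A lack of overlap was common among single genes. It held for 30 of the 70 genes for iMSCs against BMSCs, 51 for iMSCs against Fibs and 56 for iMSCs against iPSCs. For iPSCs against Fibs it held for 64, for BMSCs against Fibs 55 and for BMSCs against iPSCs 58. Ratios of other gene pairs were not computed.

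**Figure D3:**
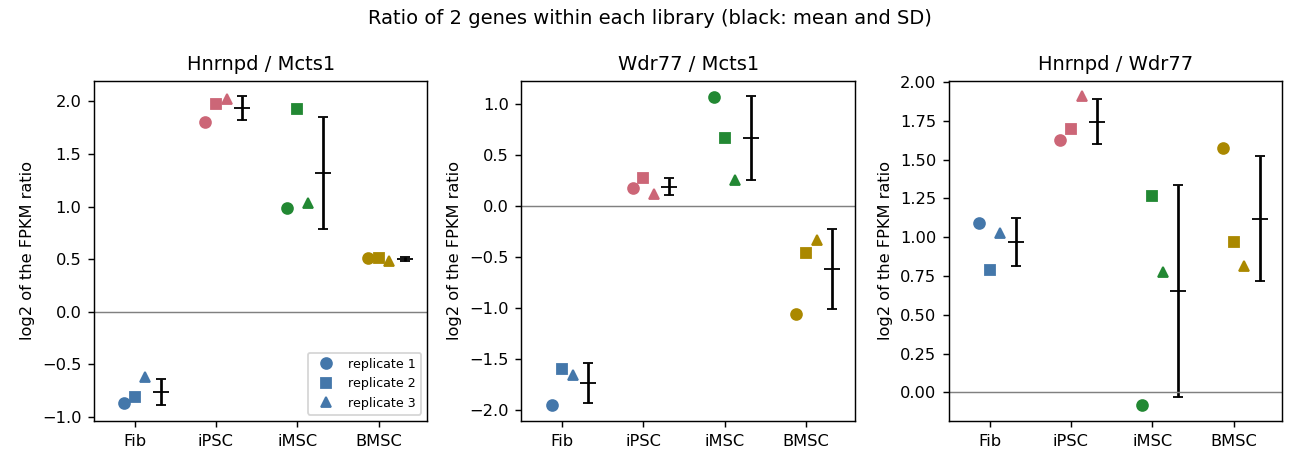
Log2 of the ratio of FPKM values of 2 genes within each library, by cell type, with circles, squares and triangles for replicates 1, 2 and 3, black bars for the mean and SD of 3 libraries, and a grey line at a ratio of 1. The Fib libraries lie under the line for Hnrnpd over Mcts1 (0.548 to 0.648), and for Wdr77 over Mcts1 both the Fib and the BMSC libraries do while the iPSC and iMSC libraries lie over it.

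Of the other genes in 8 lists on RNA processing and translation (267 genes with the 3 described here), 4 were in the table, and none was a further hnRNP, methylosome subunit, initiation factor or ribosomal protein. Tbrg4 acts on the stability of mitochondrial mRNAs, and Rtca is an RNA 3′-terminal phosphate cyclase. Xpo6 is a nuclear export receptor whose known cargo is actin rather than RNA, and Dazap2 is a small proline-rich adaptor protein found by its binding to the RNA-binding protein DAZ. Of these 4, 3 were higher and 1 lower in iPSCs than in Fibs by the edgeR test, beside the 54.3% and 32.9% of the 70 tested genes. Between iMSCs and BMSCs 1 was higher, 1 lower and 2 did not pass, beside 10% higher and 7.14% lower of the 70 tested genes.

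Tbrg4, like Wdr77, had its highest mean in the iPSCs and its lowest in the Fibs. For Wdr77 the order of iMSCs and BMSCs was not settled, since those libraries overlapped. The means of Tbrg4 ran from iPSCs through iMSCs and BMSCs to Fibs. Its FPKM was 3.63, 4.03 and 4.25 in the Fibs, 17.4, 16.4 and 15.4 in the iPSCs, 7.72, 11.1 and 8.39 in the iMSCs and 5.52, 5.23 and 4.94 in the BMSCs. No group overlapped another. Tbrg4 was higher in iPSCs than in Fibs by 2.04 on the log2 scale (SE 0.10, edgeR adjusted p = 7.47e-07) and higher in iMSCs than in BMSCs by 0.79 (SE 0.17, adjusted p = 0.0249). The second call was lost without any 1 of the BMSC libraries or iMSC replicate 3 (adjusted p = 0.0738 to 0.109), at log2 fold changes of 0.75 to 0.85.

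Dazap2 had the opposite sign to Tbrg4 in both of these comparisons, though its highest level was in the BMSCs. Its FPKM was 48.2, 47.3 and 49.0 in the Fibs, 22.9, 22.03 and 23.8 in the iPSCs, 38.6, 32.2 and 39.8 in the iMSCs and 57.6, 55.2 and 55.2 in the BMSCs. For iPSCs against Fibs its log2 fold change was -1.07 (SE 0.04, edgeR adjusted p = 3.87e-07), and for iMSCs against BMSCs it was -0.60 (SE 0.12, adjusted p = 0.0249), lower in both. The second call was lost without any 1 of the BMSC libraries or without iMSC replicate 1 or 3 (adjusted p = 0.0738 to 0.109), at log2 fold changes of -0.66 to -0.58.

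Rtca was at 14.5 ± 0.735 in the Fibs, 23.1 ± 1.47 in the iPSCs, 15.7 ± 3.40 in the iMSCs and 18.3 ± 0.653 in the BMSCs (FPKM, SD, n = 3 each). It was higher in iPSCs than in Fibs by 0.67 on the log2 scale (SE 0.09, edgeR adjusted p = 0.000241), but by median-ratio scaling the value was 0.23 (adjusted p = 0.064). Xpo6 was at 7.32 ± 0.0756 in the iPSCs, and its means in the other 3 types were 3.94, 3.88 and 3.75, in the order Fibs, iMSCs and BMSCs. It was higher in iPSCs than in Fibs by 0.89 on the log2 scale (SE 0.05, edgeR adjusted p = 2.93e-06).

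**Figure D4:**
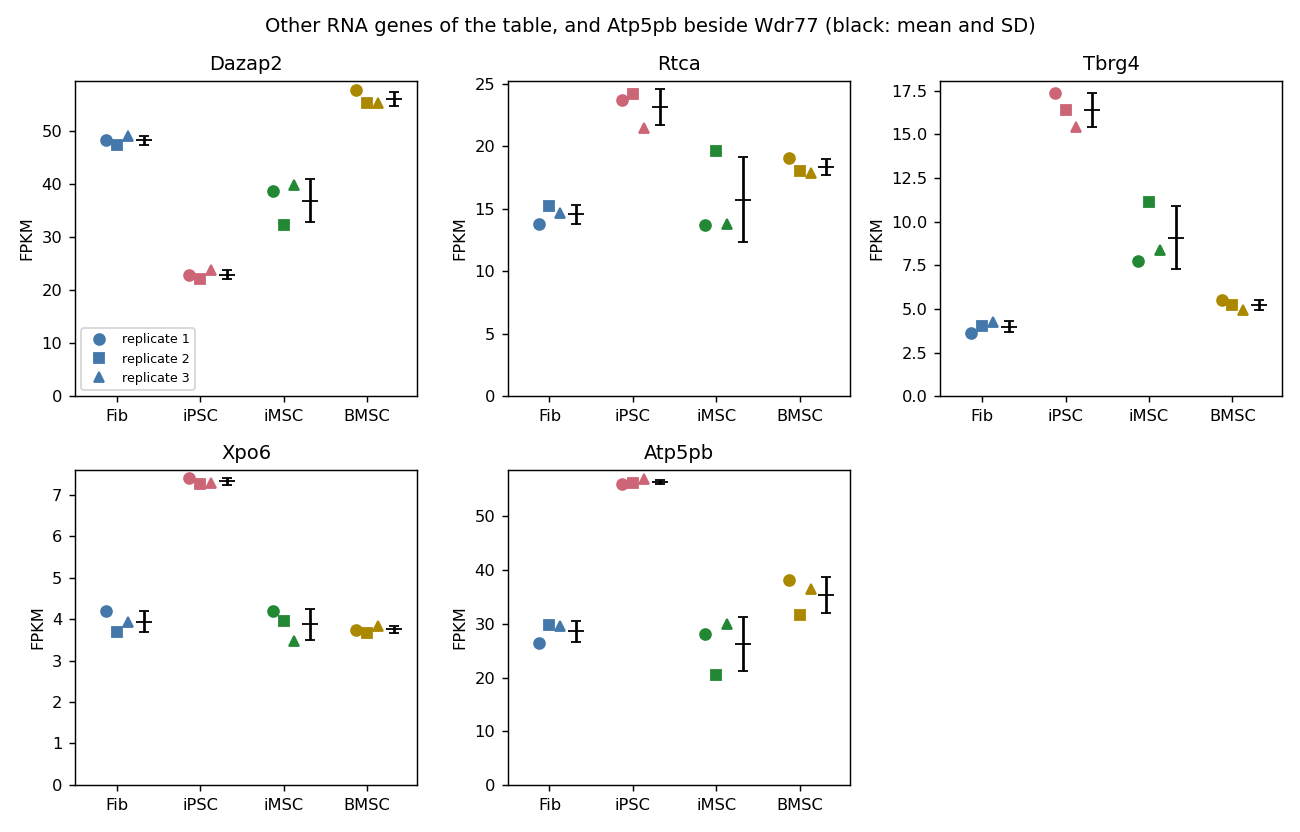
FPKM (linear axes from 0) of the 4 other listed genes and of Atp5pb, which overlaps the start of Wdr77, in the 12 libraries by cell type, with circles, squares and triangles for replicates 1, 2 and 3 and black bars for the mean and SD of 3 libraries. Dazap2 is lowest in the iPSCs, at 22.03 to 23.8, while the other 4 genes are highest there, and Atp5pb is at 20.5 to 30.0 in the iMSCs.

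Likeness was measured as Pearson's r of log2(FPKM + 1) over the 12 libraries, against the 69 other tested genes. The 12 points are 4 cell types with 3 libraries each and share their totals, so r mostly reads the order of the types and is given as a description. Hnrnpd was most like Cox5a, a subunit of cytochrome c oxidase (r = 0.97), then Hddc2 (0.96) and Bcl6b, a transcriptional repressor (0.94). The gene least like it was Tom1l2, an adaptor of endosomal sorting (r = -0.98), at 2.33 to 2.72 FPKM in the iPSCs and 7.10 to 10.2 elsewhere. Wdr77 was most like Lck, a Src family kinase best known from T cells (0.88), was also like Hnrnpd (0.84), and was least like Sox9, the regulator of cartilage formation (-0.89).

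Mcts1 had other neighbours. It was most like Galnt1, which starts O-linked glycosylation (r = 0.97), Gnai3, an inhibitory G protein subunit (0.92), and Fer, a tyrosine kinase (0.85), and least like Itga5, the fibronectin receptor subunit (-0.89). The FPKM of Galnt1 was 3.49 to 6.42 in the iMSCs and 9.76 to 15.2 in the other types, close to the pattern of Mcts1. With Hnrnpd and Wdr77 its r was 0.11 and -0.15. Without iMSC replicate 2 the r of Mcts1 was 0.96 with Galnt1, 0.90 with Gnai3, 0.78 with Fer and -0.83 with Itga5, and Itga5 was at 177.5 in that library beside 79.4 and 83.2 in the other iMSC libraries.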

How the data were processed

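RNA of 12 mouse cultures was sequenced, 3 each of Fibs, iPSCs, iMSCs and BMSCs. The submitters' processing notes list StringTie 1.3.4d, HISAT2 2.0.4 and cutadapt 1.9. The FPKM values in the deposited table were scaled by the authors to gene length and library total. The deposited counts are whole numbers that the authors did not normalize, and the counting step is not stated. Counts of 4, 8 or 12 made up 61 of the 77 values from 1 to 13, which means that 1 fragment was not 1 count. Although mm9 is the build in the notes, start and end matched GENCODE M21 (GRCm38) for 85 of the 99 genes. The use of strand in counting is not stated, and 0 value columns could not be matched to a sample.

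Library totals were computed by dividing count by FPKM and length over 6 genes with 1 transcript, which differed by at most 0.0892%. Counts were tested by edgeR 4.0.16 (quasi-likelihood, totals as library sizes, prior count 0.125) in R 4.3.3, with 6 libraries per comparison, over the 70 genes at or above an FPKM of 1 in 3 or more libraries. P-values were adjusted by Benjamini-Hochberg over those genes, and the threshold was 0.05. The step was also run on simulated counts with the same setting of spread for every gene and no outlying library. That run does not cover the spread seen in the iMSCs. Ratios were tested by exact permutation. Intervals cover the spread between cultures. Groups came from the sample labels. A chi-square test of counts between replicates gave at least 14.8 per degree of freedom, so each library counted once.

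The genes named are the 3 genes, all genes of the 8 lists found in the table, the 3 genes most like and the 1 least like each of them (1 of these is not reported here), the markers present, and Atp5pb, taken for its overlap with Wdr77. The 3 genes and the lists were chosen with earlier results of these data known. Alternatives were other filters, median-ratio and TMM scaling, DESeq2 1.42.0, limma 3.58.1 on log2 values with a pseudocount of 1 or 0.1, all 12 libraries in 1 fit, a replicate block, adjustment over all 6 comparisons, a fold threshold, and leaving out each library.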

Additional observations from a re-analysis of the deposited data

How the results depend on the processing

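Of the 18 results for Hnrnpd, Wdr77 and Mcts1, 6 kept their direction and side of the threshold under every alternative tried. They were Hnrnpd for iPSCs against Fibs, iMSCs against iPSCs and BMSCs against iPSCs, Mcts1 for iMSCs against Fibs and against iPSCs, and Wdr77 for iPSCs against Fibs. The cause of the changes below was not tested.

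For Wdr77 in iMSCs against iPSCs, log2 fold changes that did not pass were -0.39 by median ratio, -0.31 by TMM and -0.39 by DESeq2 with its own size factors. For Mcts1 in iPSCs against Fibs, values that passed were -0.63 by median ratio, -0.66 by TMM, -0.63 by DESeq2 and -0.19 and -0.20 by limma with a pseudocount of 1 and 0.1. For Mcts1 in BMSCs against iPSCs the sign turned to 0.0943, 0.20 and 0.0944 by median ratio, TMM and DESeq2. Mcts1 in BMSCs against Fibs did not pass with all 12 libraries in 1 fit (-0.30). Xpo6 in iMSCs against Fibs turned to 0.0655 by TMM.

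With a log2 fold change over 1 also required, Hnrnpd at 0.66 in iMSCs against Fibs and 0.97 in BMSCs against Fibs no longer passed, nor did Wdr77 at -0.72 in iMSCs against iPSCs, 0.84 in BMSCs against Fibs and -0.88 in BMSCs against iPSCs, or Mcts1 at -0.30 in BMSCs against Fibs. The genes passing then fell to 4 for iMSCs against BMSCs, 38 for iPSCs against Fibs, 18 for BMSCs against Fibs and 34 for BMSCs against iPSCs. For iMSCs against BMSCs, 12 genes passed, but 19 by DESeq2 with its own size factors and 22 with all 12 libraries in 1 fit.

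Whether replicate numbers pair the cultures is not given by the labels, and correlations with 3 libraries per type cannot decide it. The correlations of same-numbered libraries were -0.388 to 0.436, and in 8 of 36 checks a library correlated best with its own number. With a replicate block, Mcts1 in iMSCs against BMSCs was -1.14 (edgeR adjusted p = 0.0703), Wdr77 in iMSCs against Fibs 0.96 (0.06) and Mcts1 in BMSCs against Fibs -0.30 (0.0588), none of which passed. Nor did Tbrg4 (0.78) and Dazap2 (-0.61, both 0.116) in iMSCs against BMSCs, where 1 gene passed.

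Leaving out 1 library at a time gave, for iMSCs against BMSCs, 1 to 41 genes passing, the most without iMSC replicate 2. There Hnrnpd ranged from -0.50 to -0.20, Mcts1 from -1.20 to -1.01, Wdr77 from -0.15 to 0.30 and Xpo6 from -0.0132 to 0.12. For iMSCs against Fibs, 23 to 47 genes passed, and the ranges were 0.46 to 0.76 for Hnrnpd, 0.68 to 1.14 for Wdr77, -0.0814 to 0.20 for Rtca, -0.0821 to 0.0519 for Xpo6 and -0.23 to 0.0218 for Atp5pb. For iMSCs against iPSCs, Wdr77 ranged from -1.04 to -0.58. The log2 ratio of Hnrnpd to Wdr77 ranged from -0.62 to 0.0506 for iMSCs against Fibs and from -0.0787 to 0.30 for BMSCs against Fibs.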
